A study of Mus musculus with 12 samples.

Results

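The change in transcription between 6 h and 24 h was measured in mouse 3T3-L1 pre-adipocytes, an embryonic fibroblast line that can be turned into fat cells, kept in co-culture with macrophages of the mouse line RAW264.7. The data are the red (Cy5) channel of 8 of the 12 dual-colour arrays of the study, 4 titled with 24 h and 4 titled with 6 h, which were chosen by these labels alone and matched by treatment. The co-culture was indirect, across a transwell insert that lets soluble factors pass. By the methods, RNA came from cells of the lower well, under an insert that held the other cell type (3T3L-1 and Raw264.7 in the labels). At each time 1 array was untreated (NT), 1 had 100 µM serotonin (S), 1 had 100 µM cortisol (C) and 1 had 100 µM of each hormone (CS). The green (Cy3) channel of the same arrays held pre-adipocytes without macrophages, at the matching treatment and time. There was 1 array per condition, so the 4 treatments stood in for replicates after a treatment term was fitted, and the p-values rest on the remaining spread among these arrays alone, which may be technical. Both lines are single established lines, and nothing in the labels gives separate cultures or a dye swap.

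As background, a few programmes whose genes are described below work as follows. Sterol synthesis is set by SREBP-2, a membrane-bound transcription factor that is released when cell cholesterol is low and that switches on the enzymes of the pathway. Interferons of type I are secreted proteins that act back on the cell and switch on antiviral genes, many of which carry an interferon-stimulated response element. Immediate early genes such as Fos rise and fall within hours of a stimulus, and genes of mitosis are transcribed mainly late in the cell cycle.

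The 6 h arrays lay on 1 slide, the 24 h arrays on a second, and each slide had 1 scan, so effects of slide and of time cannot be told apart. The 10 spike-in RNAs that were added to every sample changed by -0.08 to 0.16 on the log2 scale in the red channel, relative to the 75th percentile of each array. Their SD between arrays was larger, at 0.30 to 0.39 among the 24 h arrays and 0.08 to 0.33 among those of 6 h. Between 23378 and 25230 red spots of 43020 were well above background. The untreated 6 h array stood apart, with a median red processed signal of 75.1 against 29.1 to 49.2 on the other 7. The cortisol labels were checked with Zbtb16, a gene that glucocorticoids induce and that was not used to check serotonin. In the red channel its log2 level was 7.42 to 8.26 on the NT and S arrays and 10.05 to 10.34 on the C and CS arrays, as the cortisol labels read. In the green channel the S arrays stood at 10.04 at both times and the CS array of 24 h at 8.43, against 7.74 and 8.02 on the NT arrays. The labels of cells alone on these 3 arrays are therefore in doubt, which touches the comparison with cells alone. In the red channel this gene raised no such doubt about cortisol, while the serotonin labels were not checked. Of 25 fibroblast markers, 24 passed the filter, and the summed red signal of the 22 with a value on all 8 arrays was 428500 to 466900 at 6 h and 424800 to 443200 at 24 h. Of the adipocyte genes, Adipoq, Lep and Plin1 were not well above background on any of the 8 arrays, while Pparg, Fabp4 and Dlk1 were on all.

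Of 13181 genes tested, 888 (6.74%) were higher at 24 h than at 6 h in co-cultured pre-adipocytes and 847 (6.43%) were lower, when called by limma at 1.5-fold or more with an adjusted p under 0.05. All values below are log2 of the red processed signal after quantile normalization between the 8 arrays, and a change is 24 h minus 6 h ± SE over 4 treatment-matched pairs. Of the 1735 genes called, 1696 moved the same way in every pair. The median change of all genes tested was -0.003. The share of calls that were higher, 51.2%, was 39.8% when each array was scaled to its 75th percentile instead. Without the 3 doubted arrays, and with time alone as a term, 295 genes were higher and 381 lower. That fit kept 5 arrays that were not matched by treatment, and the doubt came from the green signal. Here and below, calls lost in it cannot be told apart from the effect of fewer, unmatched arrays. Calls were more frequent among dim genes, with 277 higher and 150 lower in the dimmest of 5 equal groups of genes by mean level against 16 and 47 in the brightest. Sets of genes are described below by their counts and their median beside that of all genes, and the plot of gene lists sets them side by side. Each count is to be read beside the shares of all genes, 6.74% higher and 6.43% lower.

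**Figure D1:**
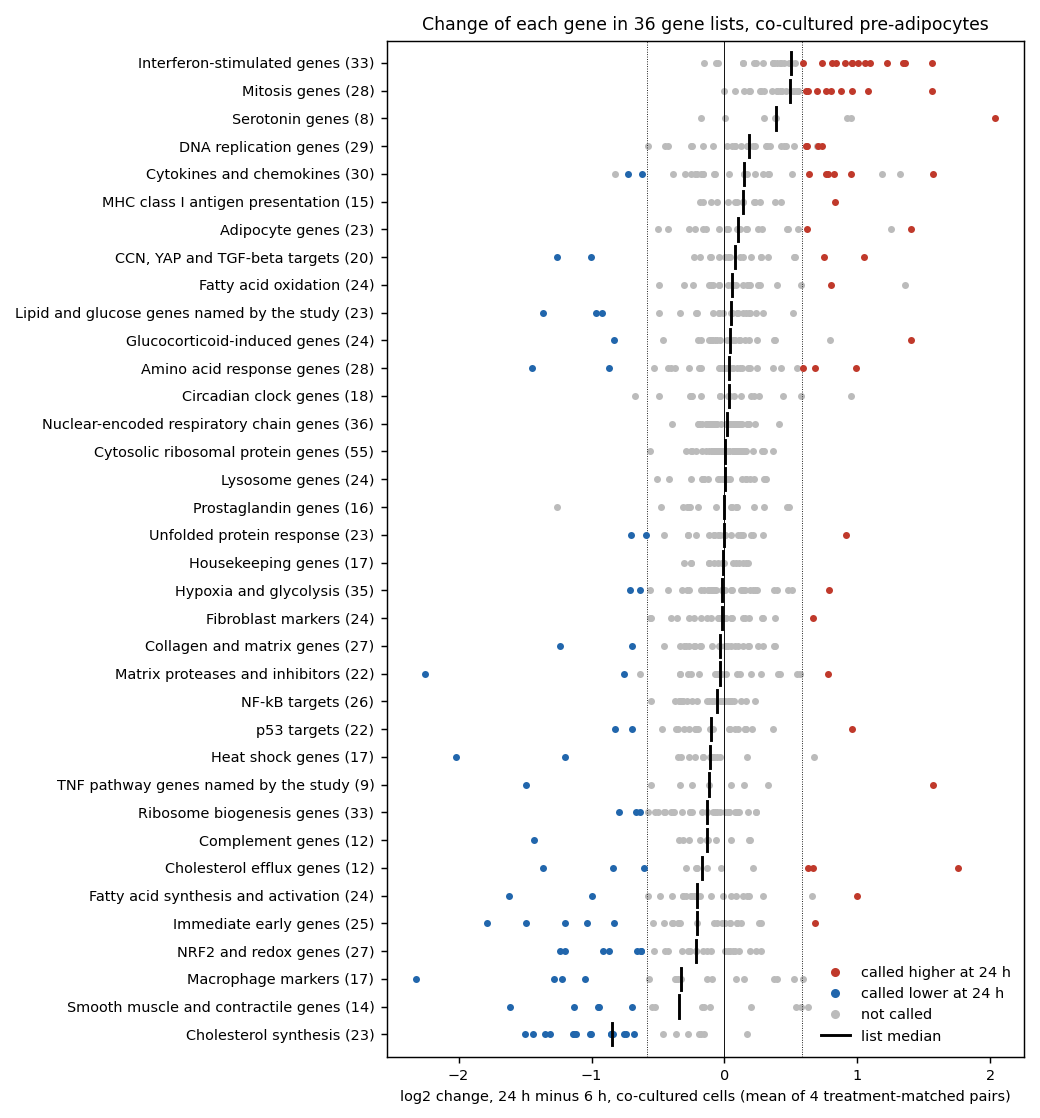
Log2 change from 6 h to 24 h in co-cultured pre-adipocytes (x axis) of every measured member of 36 gene lists (rows, with the number measured), where each point is a gene, coloured by its call, the black bar is the list median and dotted lines mark 1.5-fold. Cholesterol synthesis lies farthest to the left with a median of -0.85, and interferon-stimulated and mitosis genes farthest to the right with medians of 0.50 and 0.49.

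Genes of the cholesterol synthesis list were lower at 24 h. Of 23 measured, 16 fell and none rose, with a median change of -0.85, and 22 had a change below 0. Hmgcs1, the synthase that makes HMG-CoA, stood at log2 levels of 14.12, 14.05, 14.37 and 14.29 at 6 h (in the order NT, S, C and CS, as throughout) and at 13.02, 13.10, 13.25 and 12.93 at 24 h. It fell by 1.13 ± 0.08 (adjusted p = 0.000306 by limma), and the times did not overlap.

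The falls ran from the first steps of the pathway to the last. Mvd, which makes isopentenyl diphosphate, fell by 1.44 ± 0.13, Idi1, its isomerase, by 0.85 ± 0.11, and Fdps and Fdft1, which build farnesyl diphosphate and squalene, by 0.74 ± 0.07 and 0.86 ± 0.08. Among the later sterol enzymes, Cyp51 fell by 1.31 ± 0.09, Msmo1 by 1.12 ± 0.07, Nsdhl by 1.00 ± 0.09 and Dhcr7 by 0.84 ± 0.09. Another probe of Nsdhl changed by -0.42 (adjusted p = 0.293 by limma). Insig1, which holds SREBP in the endoplasmic reticulum and is itself a target of it, stood at 7.99, 7.94, 7.97 and 7.66 at 6 h and at 6.67, 6.74, 6.49 and 6.27 at 24 h, a fall of 1.35 ± 0.12. Stard4, a sterol carrier, fell by 1.01 ± 0.09. Srebf2, which encodes SREBP-2, was not called, with a change of -0.46. Sqle, squalene epoxidase, was the exception in sign, with a change of 0.17 that was not called. The median of the list was -0.86 in the NT pair, -0.85 in the S pair, -0.70 in the C pair and -0.91 in the CS pair. Between 12 and 16 members were lower under every alternative that kept the 1.5-fold threshold, and 12 without the 3 doubted arrays and the treatment term.

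The promoter of Hmgcs1 is shown because it holds the sterol regulatory element, the site that SREBP binds. It is the RefSeq promoter of build GRCm38.p6 (chr13:119690101-119690400, plus strand), from 250 bases before to 50 bases after the start, 5′ to 3′, with capitals for the letters TCACNCCAC, searched on both strands:
Hmgcs1: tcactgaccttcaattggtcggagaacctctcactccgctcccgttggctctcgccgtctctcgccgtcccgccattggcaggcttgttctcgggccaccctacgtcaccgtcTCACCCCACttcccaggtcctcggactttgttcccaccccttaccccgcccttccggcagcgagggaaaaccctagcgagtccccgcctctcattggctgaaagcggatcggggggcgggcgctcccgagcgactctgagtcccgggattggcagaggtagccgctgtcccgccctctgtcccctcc
The match began 137 bases before the start. Of 16 genes of the list with a promoter in the RefSeq table used here, it was the only one with these exact letters, against 1.44% of all 27025 genes with a promoter, and 9 others that fell had a promoter there without these letters.

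**Figure D2:**
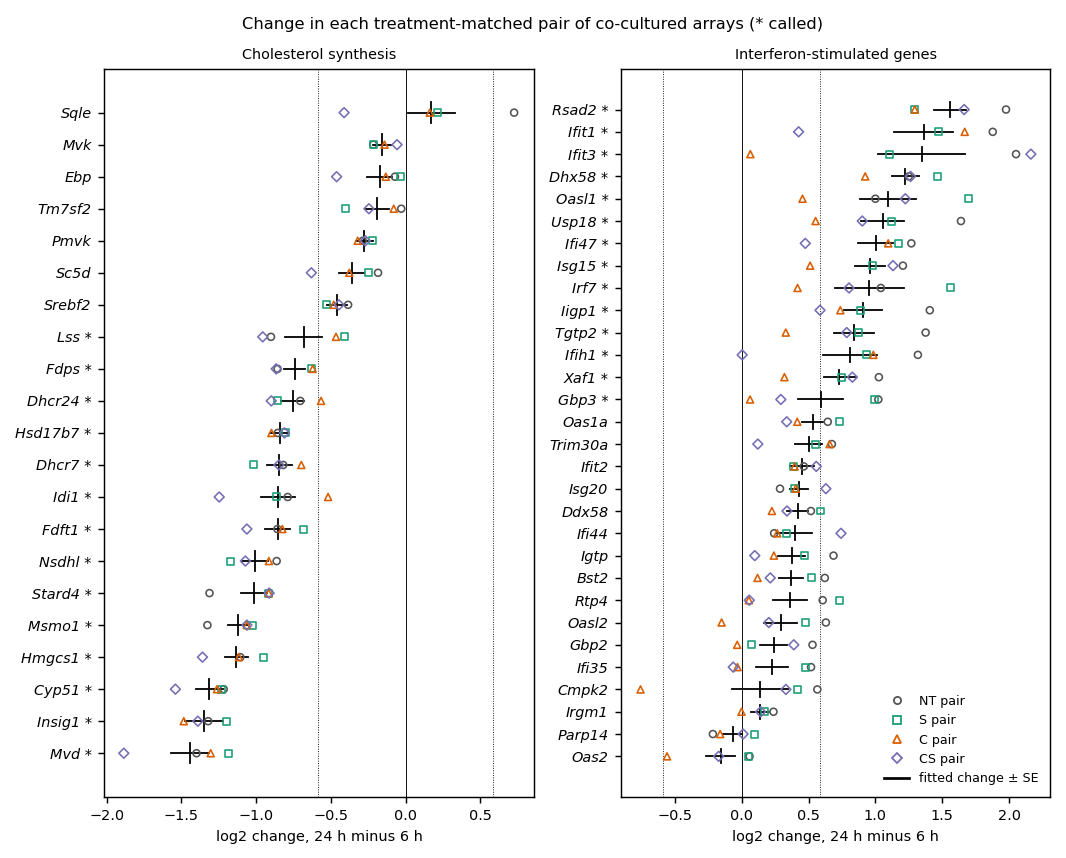
Log2 change from 6 h to 24 h (x axis) in each of the 4 treatment-matched pairs (open symbols) for 21 of the 23 measured cholesterol synthesis genes (left) and 30 of the 33 interferon-stimulated genes (right), with the fitted change ± SE in black, dotted lines at 1.5-fold and * for called genes. The 14 called cholesterol genes shown fell in every pair, and among the 14 called interferon-stimulated genes the C pair often moved least.

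Other genes of lipid handling moved in both directions, where 6.74% of all genes tested were higher and 6.43% were lower. Fasn, fatty acid synthase, had levels of 9.66, 9.48, 9.48 and 9.43 at 6 h and of 7.75, 7.90, 8.19 and 7.75 at 24 h, with no overlap and a fall of 1.62 ± 0.12 (adjusted p = 0.000328 by limma). Elovl6, which lengthens its products, fell by 0.99 ± 0.07, while Acacb, an acetyl-CoA carboxylase that restrains fatty acid oxidation, rose by 1.00 ± 0.08. The other 21 of 24 fatty acid synthesis genes were not called, and the list median was -0.21. Of 12 genes of cholesterol efflux and storage, 3 rose and 3 fell. Apoe, a lipid-binding apolipoprotein, fell from 9.99, 9.72, 9.85 and 9.52 to 8.39, 8.53, 8.40 and 8.30, a change of -1.36 ± 0.10. Of the cholesterol exporters of the list, Abca1 rose by 0.67 ± 0.07 while Abcg1 fell by 0.84 ± 0.23, a call that was lost without the S, C or CS array of either time (adjusted p of 0.0543 to 0.0781 by limma). Soat1, which esterifies cholesterol for storage, fell by 0.61 ± 0.10 and was under 1.5-fold without the S array of either time or the C array of 6 h. Nr1h3, which encodes the oxysterol receptor LXR-alpha, rose by 0.63 ± 0.08. Ch25h, which makes 25-hydroxycholesterol, had levels of 5.91, 4.60, 2.10 and 2.53 at 6 h and of 6.21, 6.23, 4.52 and 5.20 at 24 h. It was well above background on 2 of 4 arrays at 6 h and 4 of 4 at 24 h, and its change of 1.75 ± 0.47 lost its call when any of the S, C or CS arrays was left out, with adjusted p of 0.083 to 0.115 by limma. Lrp8, a receptor of apolipoprotein E that is outside the lists and the rule for named genes, fell by 1.82 ± 0.10. Its change was not followed through the alternatives. Of the 23 adipocyte genes measured, Dgat2, which makes triglyceride, rose by 0.62 ± 0.08 and Slc2a4, the insulin-responsive glucose transporter, by 1.4 ± 0.29, the latter well above background on 2 of 4 arrays at 6 h. The call of Dgat2 was lost without the C array of either time, and that of Slc2a4 without the S array of either time or the C or CS array of 24 h.

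Interferon-stimulated genes were higher at 24 h. Of 33 measured, 14 rose and none fell, with a median change of 0.50, and 30 had a change above 0. Rsad2, which encodes the antiviral protein viperin, had levels of 9.94, 11.08, 9.44 and 9.74 at 6 h and of 11.92, 12.38, 10.73 and 11.40 at 24 h. It rose in every pair, by 1.56 ± 0.12 on average (adjusted p = 0.000367 by limma), although the S array of 6 h stood above the C array of 24 h. Ifit1, which binds viral RNA, had levels of 9.59, 10.65, 9.18 and 10.15 at 6 h and of 11.46, 12.12, 10.84 and 10.58 at 24 h, a rise of 1.36 ± 0.22 with the S array of 6 h again in the range of 24 h. Isg15, a ubiquitin-like modifier, stood at 13.72, 14.12, 13.77 and 13.79 at 6 h and at 14.92, 15.10, 14.28 and 14.93 at 24 h. Its times did not overlap, and it rose by 0.96 ± 0.11. Dhx58, a cytosolic RNA sensor, rose by 1.23 ± 0.10, Usp18, which removes Isg15, by 1.05 ± 0.16, and Ifit3 by 1.35 ± 0.32, a call that was lost without the NT or CS array of either time (adjusted p of 0.0511 to 0.0671 by limma). In Ifit3 the C array hardly moved (10.68 at 6 h and 10.75 at 24 h), while the other 3 reached 12.92 to 13.19. The median of the list was 0.69 in the NT pair, 0.59 in the S pair, 0.27 in the C pair and 0.39 in the CS pair. The count of 14 was 9 without a treatment term, 11 without the untreated 6 h array and 1 without the 3 doubted arrays and the treatment term.

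An interferon gene was among the called genes with the largest measured rises. Ifnb1, interferon beta, was not well above background on any 6 h array and was on all 4 at 24 h, so that it passed the filter through the 24 h arrays alone. At 24 h its log2 levels were 6.31, 6.90, 4.38 and 5.61. It was at least 3.21-fold higher at 24 h, set against the lowest signal that counted as well above background on each array (adjusted p = 0.00272 by limma, measured means 2.93 and 5.80). Its measured change was 2.87 in co-culture and 3.99 in cells alone, a difference that was not called (adjusted p = 0.0877 by limma). Ifih1, the sensor of long double-stranded RNA, rose by 0.81 ± 0.20 and Irf7, the factor that amplifies interferon transcription, by 0.96 ± 0.26. The call of Ifih1 was lost without the NT, S or C array of either time (adjusted p of 0.0636 to 0.0698 by limma), and that of Irf7 without the S or CS array of either time (0.0656 to 0.135). Of 15 genes of antigen presentation on MHC class I, Psmb9, a subunit of the immunoproteasome, rose by 0.83 ± 0.11 and the other 14 were not called. Of all genes tested, 6.74% were higher.

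The promoters of 3 of the risen genes are shown because they hold the core of the interferon-stimulated response element, here the letters GAAANNGAA in capitals, searched on both strands (minus-strand matches appear as their reverse complement), in the same RefSeq build and window. Ifit1 lies at chr19:34640639-34640938, plus strand, Rsad2 at chr12:26456403-26456702, minus strand and Isg15 at chr4:156200769-156201068, minus strand:
Ifit1: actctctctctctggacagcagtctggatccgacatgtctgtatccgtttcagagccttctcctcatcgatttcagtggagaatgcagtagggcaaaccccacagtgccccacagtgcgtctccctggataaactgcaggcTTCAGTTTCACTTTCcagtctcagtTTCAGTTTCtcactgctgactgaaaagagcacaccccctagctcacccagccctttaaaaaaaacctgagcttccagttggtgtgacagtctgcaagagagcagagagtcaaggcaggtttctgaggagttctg
Rsad2: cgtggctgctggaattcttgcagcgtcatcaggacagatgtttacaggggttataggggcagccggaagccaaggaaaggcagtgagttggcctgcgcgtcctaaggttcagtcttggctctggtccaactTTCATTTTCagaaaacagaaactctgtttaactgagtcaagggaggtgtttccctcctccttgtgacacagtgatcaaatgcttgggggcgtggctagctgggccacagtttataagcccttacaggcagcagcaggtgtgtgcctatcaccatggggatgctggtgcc
Isg15: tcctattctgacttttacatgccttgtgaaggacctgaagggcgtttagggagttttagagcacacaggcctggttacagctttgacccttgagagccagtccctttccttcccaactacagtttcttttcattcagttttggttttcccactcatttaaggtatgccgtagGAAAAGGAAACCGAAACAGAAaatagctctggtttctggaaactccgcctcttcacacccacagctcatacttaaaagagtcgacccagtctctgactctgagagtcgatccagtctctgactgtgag
Ifit1 had 3 matches, which began 109, 103 and 84 bases before the start, the first and second overlapping. Rsad2 had 1 match at 119 bases before it, and Isg15 had 3 overlapping matches in a row, from 78 bases before it. Of the 26 list members with a promoter, 16 (61.5%) held a match, against 9.76% of all genes with a promoter. Of the 11 called members among them 7 held one, and of the 15 that were not called 9 did.

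Genes of mitosis were higher at 24 h as well. Of 28 measured, 9 rose and none fell, the median change was 0.49, and 27 had a change above 0. Ccnb2, a cyclin that drives entry into mitosis, had levels of 11.55, 11.77, 11.70 and 11.42 at 6 h and of 12.57, 13.03, 12.26 and 12.40 at 24 h. The times did not overlap and it rose by 0.96 ± 0.11 (adjusted p = 0.00113 by limma). Hmmr, a hyaluronan receptor that also acts at the spindle, went from 9.73, 9.97, 9.76 and 9.67 to 10.92, 11.43, 10.49 and 10.61, a rise of 1.08 ± 0.12. Cdc25c, the phosphatase that activates the mitotic kinase, stood at 4.22, 5.65, 5.29 and 5.33 at 6 h and at 6.66, 7.08, 6.40 and 6.59 at 24 h, a rise of 1.56 ± 0.27. Pttg1, which encodes securin, rose by 0.88 ± 0.11 and Ccnb1 by 0.61 ± 0.08, and the kinase gene Cdk1 was not called, with a change of 0.36. Another probe of Pttg1 did not show the rise, with a change of -0.11 (adjusted p = 0.538 by limma). In the pairs the median of the list was 0.55 (NT), 0.77 (S), 0.24 (C) and 0.47 (CS). The count of 9 became 14 when the C array of either time was left out and 3 without the 3 doubted arrays and the treatment term. Of 29 genes of DNA replication, 4 rose and none fell, with a median of 0.19. These were Prim1 and Pola1 of the primase complex, Rfc4 of the clamp loader and Gins2 of the replicative helicase, with changes of 0.74, 0.62, 0.71 and 0.61. Pola1 and Gins2 fell under 1.5-fold without the S array of either time, Pola1 also without the NT array, and Ccnb1 without the S or CS array of either time. Without the 3 doubted arrays and the treatment term 2 members of that list were higher.

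The promoters of Ccnb2 and Hmmr are shown for the cell cycle genes homology region (TTTGAA) and the CCAAT box (CCAAT), whose letters are in capitals and were searched on both strands (TTCAAA and ATTGG on the minus strand). They lie at chr9:70421505-70421804, minus strand and at chr11:40733388-40733687, minus strand, in the same build and window:
Ccnb2: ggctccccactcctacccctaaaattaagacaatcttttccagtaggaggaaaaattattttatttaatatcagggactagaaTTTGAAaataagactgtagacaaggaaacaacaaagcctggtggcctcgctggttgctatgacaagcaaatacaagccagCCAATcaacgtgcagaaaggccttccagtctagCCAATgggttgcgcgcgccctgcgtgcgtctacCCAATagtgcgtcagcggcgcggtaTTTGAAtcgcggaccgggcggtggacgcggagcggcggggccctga
Hmmr: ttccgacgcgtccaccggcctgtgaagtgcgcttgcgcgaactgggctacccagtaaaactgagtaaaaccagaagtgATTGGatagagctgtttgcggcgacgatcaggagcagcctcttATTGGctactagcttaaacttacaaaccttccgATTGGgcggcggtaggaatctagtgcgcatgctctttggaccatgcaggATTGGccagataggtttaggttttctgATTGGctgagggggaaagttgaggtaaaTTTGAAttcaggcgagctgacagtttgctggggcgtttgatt
Ccnb2 had CCAAT boxes from 87, 54 and 21 bases before the start and TTTGAA at 5 bases past it and at 167 bases before it. Hmmr had 5 CCAAT boxes on the minus strand, from 172, 129, 96, 47 and 20 bases before the start, and TTTGAA at 9 bases past it. Of 26 mitosis genes with a promoter, 18 (69.2%) held TTTGAA and 21 (80.8%) held CCAAT, against 20.2% and 41.1% of all genes. TTTGAA was held by 5 of the 8 called members and 12 of the 17 that were not called.

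Cytokine genes moved unevenly. Of 30 measured, 6 rose and 2 fell, with a median change of 0.15. Csf2, which encodes the growth factor GM-CSF, had levels of 10.32, 10.60, 9.14 and 9.41 at 6 h and of 12.64, 12.40, 9.98 and 10.73 at 24 h. It rose in all pairs, by 1.57 ± 0.22 (adjusted p = 0.00212 by limma), but the times overlapped, since both cortisol arrays were low at each time. Il1a, interleukin 1 alpha, rose from 8.21 to 9.65 in the NT pair and from 8.85 to 9.99 in the S pair, and stood at 8.24 and 8.65 in the C pair and 8.43 and 8.49 in the CS pair. Its change of 0.76 ± 0.22 was no longer called without the untreated 6 h array (adjusted p = 0.0982 by limma), and likewise without the NT array of 24 h or the S or C array of 6 h or the S array of 24 h. Without the 3 doubted arrays and the treatment term 1 member of the cytokine list was higher. Il33, an alarmin, moved the other way round, with rises to 11.12 and 11.55 in the C and CS arrays of 24 h against 10.45 and 10.26 in NT and S, and a fitted change of 0.78 ± 0.20. Cx3cl1, the ligand of the fractalkine receptor, rose by 0.82 ± 0.08, Tslp by 0.95 ± 0.20 and Csf3 by 0.63 ± 0.14. Tnfsf9, the ligand of 4-1BB, fell by 0.72 ± 0.07 and the chemokine gene Ccl9 by 0.62 ± 0.11. Calls were also lost for Il33 without the C or CS array of either time, for Csf3 without the NT array and Ccl9 without the C array of either time, and for Tslp without the S array of 24 h.

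None of the 26 genes of the NF-kB list was called, and their median change was -0.06. The lowest change was that of Traf1, an adaptor of TNF receptors, with a change of -0.56. Of 9 genes of the TNF pathway that the study names, Csf2 rose and Fos fell, and the others, which include Il6 (0.33), Cxcl1 (0.15), Ptgs2 (0.05) and Mmp3 (-0.33), were not called. Of 23 lipid and glucose genes that the study names, none rose and Apoe, Olr1 and Slc16a11 fell, Olr1 no longer without the S, C or CS array of either time. Both sets were chosen by the study on these samples, so their counts are not independent evidence.

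Some immediate early and stress genes were lower at 24 h. Of 25 immediate early genes, 5 fell and 1 rose, with a median of -0.21. Fos had levels of 13.09, 13.47, 13.96 and 12.81 at 6 h and of 12.02, 12.47, 11.64 and 11.25 at 24 h, with no overlap and a fall of 1.49 ± 0.21 (adjusted p = 0.00211 by limma). Fosb fell by 1.79 ± 0.31, the phosphatase genes Dusp2 and Dusp1 by 1.20 ± 0.13 and 0.83 ± 0.11, and the nuclear receptor gene Nr4a2 by 1.03 ± 0.09. Atf3, a stress-induced transcription factor, rose by 0.68 ± 0.12, which was under 1.5-fold without the NT array of either time. Of 17 heat shock genes, 2 fell, with a median of -0.11, where 6.43% of all genes tested were lower. Hspa1a, an inducible HSP70, went from 6.89, 6.87, 6.52 and 6.87 to 4.86, 4.92, 4.69 and 4.60, a fall of 2.02 ± 0.21, and may share signal with its near-identical copy Hspa1b, which had no named probe. Hsph1, an HSP110, fell from 14.24, 14.20, 14.10 and 14.15 to 12.99, 12.86, 13.14 and 12.91. Its change of -1.20 ± 0.08 had an adjusted p of 0.000302 by limma. The abundant chaperone genes Hsp90aa1 and Hspa8 were not called, with changes of -0.04 and -0.33.

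Genes of the contractile apparatus fell in part. Of 14 measured, 5 fell and none rose, and the median was -0.34. Myl9, the regulatory light chain of smooth muscle myosin, had levels of 11.20, 11.19, 11.03 and 11.28 at 6 h and of 10.00, 10.05, 9.16 and 9.04 at 24 h, where both cortisol arrays were the lower ones. It fell by 1.61 ± 0.19 (adjusted p = 0.00112 by limma) with no overlap. Acta2, smooth muscle actin, fell from 14.75, 15.18, 14.72 and 14.78 to 14.00, 14.28, 13.31 and 13.31, a change of -1.13 ± 0.13, and Actn1, which crosslinks actin, by 0.95 ± 0.06. Des, desmin, and Cnn1, a calponin, had changes of 0.63 and 0.57 that were not called. The count of 5 was 3 when the CS array of either time, or the 3 doubted arrays with the treatment term, were left out, without the filter on dim probes and with the normexp background correction. Among matrix proteases Mmp10, stromelysin-2, moved most, from 12.96, 12.89, 11.22 and 11.62 to 11.72, 11.23, 8.23 and 8.50. Its fall of 2.25 ± 0.31 was larger in the C and CS pairs than in the NT and S pairs, a difference that was not tested, and the NT array of 24 h overlapped the range of 6 h. Of 27 collagen and matrix genes Aspn fell by 1.24 ± 0.18, Sparcl1 by 0.69 ± 0.09 and the other 25 were not called, where 6.43% of all genes tested were lower.

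**Figure D3:**
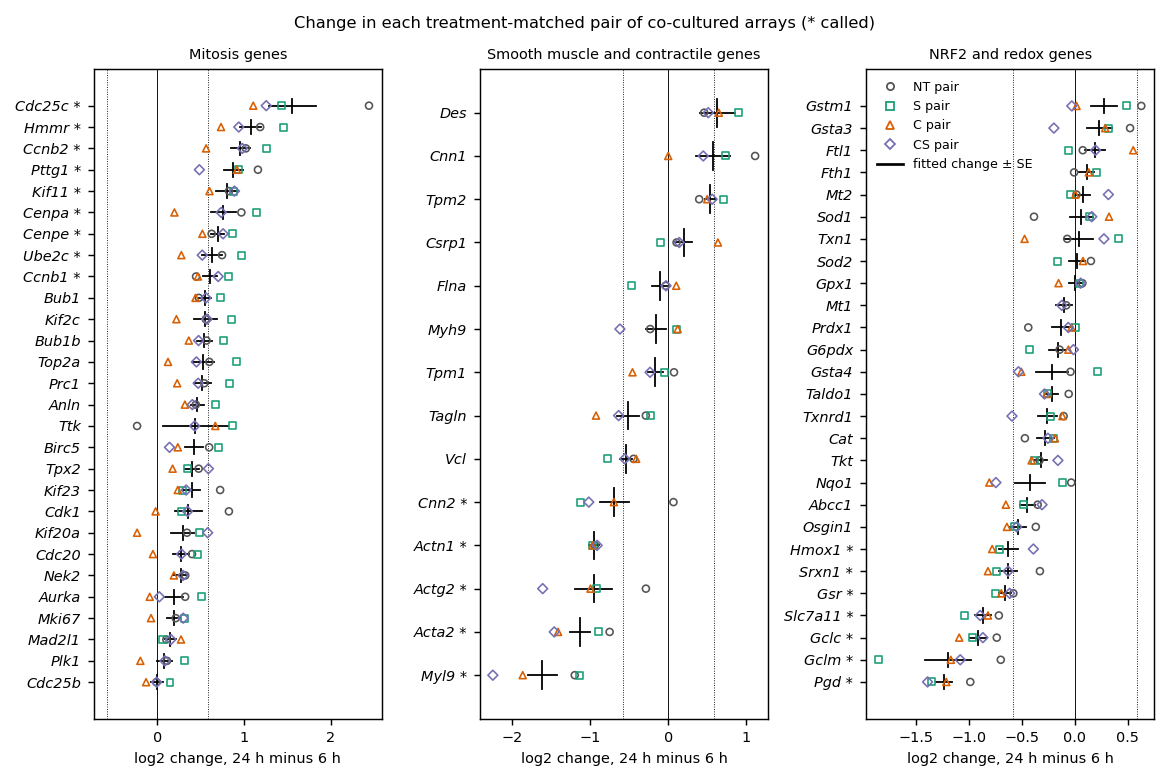
Log2 change from 6 h to 24 h (x axis) in each treatment-matched pair (open symbols) for mitosis, contractile and NRF2 genes, with the fitted change ± SE in black, dotted lines at 1.5-fold and * for called genes. In the mitosis panel the C pair is often the lowest and the S pair often the highest, and Myl9 shows the C and CS pairs to the left of NT and S.

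Of 27 genes that NRF2 regulates or that keep the redox state, 7 fell and none rose, with a median of -0.22. Pgd, an enzyme of the pentose phosphate pathway that yields NADPH, had levels of 15.16, 15.24, 15.07 and 15.09 at 6 h and of 14.17, 13.89, 13.86 and 13.70 at 24 h, a fall of 1.24 ± 0.08 (adjusted p = 0.000302 by limma). Genes of glutathione supply were among those that fell. Slc7a11, the cystine importer, fell by 0.87 ± 0.07, Gclc, the catalytic subunit of glutamate-cysteine ligase, by 0.91 ± 0.07 and Gclm, its modifier subunit, by 1.20 ± 0.22. Gsr, glutathione reductase, fell by 0.66 ± 0.06 and Srxn1, sulfiredoxin, by 0.63 ± 0.09. Hmox1, heme oxygenase 1, fell by 0.63 ± 0.09, over 3 pairs since the spot of the untreated 6 h array was left out as an outlier. With outlier spots kept its change was -0.37, and with the mean of its probes -0.14, neither called. That mean skips missing values, so on the untreated 6 h array it lacked the probe used here. Fitted singly, the Hmox1 probes past the filter changed by -0.63 and -0.87. Nqo1, a common readout of NRF2, was not called, with a change of -0.42. The median of the list was below 0 in each pair, from -0.12 (NT) to -0.34 (C). Of 28 amino acid response genes, Fgf21 rose by 0.99 ± 0.11, Ddit3 by 0.68 ± 0.09 and Ppp1r15a by 0.59 ± 0.07, while Slc7a11 and Slc7a3, an importer of cationic amino acids, fell, the latter by 1.45 ± 0.14. Smaller changes came under 1.5-fold on leaving out 1 array, Hmox1 without the C array of either time or the S array of 24 h, Srxn1 without the C array, Ddit3 without the CS array and Ppp1r15a without the NT or S array of either time. Without the 3 doubted arrays and the treatment term 1 member of the redox list and none of the immediate early list was called, in a fit by limma of 5 arrays.

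Some genes known from macrophages and other myeloid cells were lower at 24 h. Of 28 listed macrophage markers, 17 passed the filter, and 4 of these fell and none rose, with a median change of -0.33. Tyrobp, the signalling adaptor of myeloid receptors, had levels of 6.79, 4.85, 5.47 and 5.10 at 6 h, where it was well above background on 3 of 4 arrays, and was not well above background on any array at 24 h. It therefore passed the filter through the 6 h arrays alone. It was at least 2.67-fold higher at 6 h (adjusted p = 0.0145 by limma, measured means 5.55 and 3.23), a call that was lost without the S array of either time (adjusted p = 0.0668 and 0.0538). Ctss, cathepsin S, went from 7.75, 6.63, 6.93 and 6.31 to 5.68, 5.90, 5.52 and 5.63, a fall of 1.22 ± 0.27 that was not called without the C array of 6 h. Clec4d, a C-type lectin receptor, stood at 11.95, 11.78, 11.95 and 11.94 at 6 h and at 10.84, 10.72, 10.46 and 10.46 at 24 h, a fall of 1.28 ± 0.10, and its neighbour Clec4e fell by 1.05 ± 0.09. The summed red signal of the 17 markers was 27480 to 41490 at 6 h and 18210 to 31250 at 24 h, and was lower at 24 h in each pair. Their median level was higher at 24 h in each pair, at 7.66 to 8.03 at 6 h and 7.84 to 8.37 at 24 h, and 6 of the 17 had a change above 0. Clec4e was the brightest, with a level of 14.45 on the NT array of 6 h, and weighs most in the sum. In this list Ccr2, Fcgr1, Laptm5 and Ms4a7 were not well above background on any array, Ptprc and Cd52 on 1 each at 6 h, and Spi1 on 1 at 24 h, while Cd14, Csf1r, Trem2 and Itgam were on all 8 and were not called. Adgre1 was well above background on no array at 6 h and on 3 at 24 h, and Lyz2 on 2 and 4. Aif1 was higher at 24 h in each pair, from 10.60, 10.21, 10.26 and 10.00 to 10.63, 10.88, 10.41 and 10.66. Adgre1, Lyz2 and Aif1 were not called either. RNA of macrophages among the pre-adipocytes was not tested as a source of these levels, and in bulk RNA fewer cells of a type and less RNA per cell cannot be told apart. In cells alone Tyrobp changed by -0.03 ± 0.65 and Ctss by 0.63 ± 0.41, and the differences from the red channel were not called (adjusted p = 0.052 and 0.095 by limma).

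**Figure D4:**
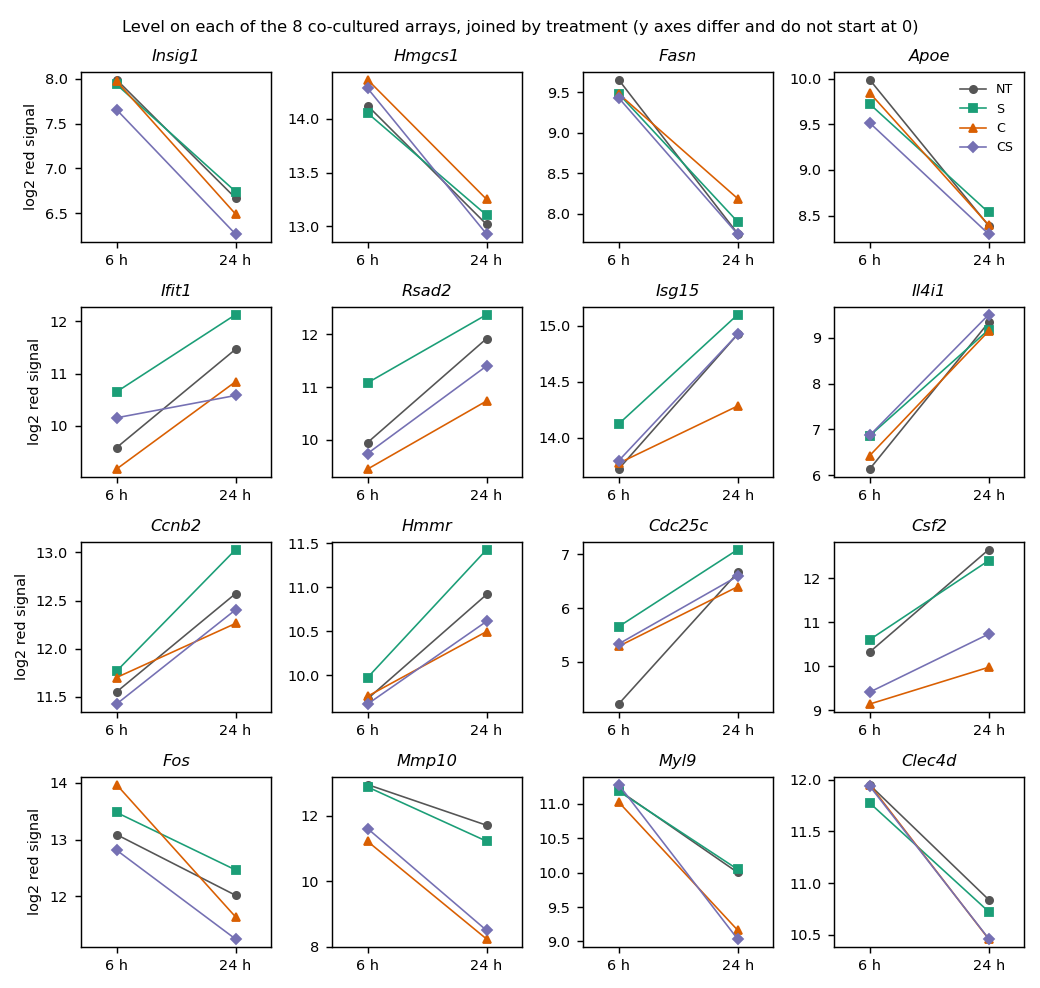
Log2 red processed signal (y axis, with its own range in each panel) of 16 genes on the 6 h and 24 h arrays (x axis), with arrays of the same treatment joined. Insig1, Hmgcs1, Fasn and Apoe fell on all treatments, Isg15, Il4i1, Ccnb2, Hmmr and Cdc25c rose on all, and Csf2 and Mmp10 show the cortisol arrays (C and CS) below the others at both times.

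The largest changes among called genes that moved the same way in all pairs were mostly of dim genes. Il4i1, an L-amino acid oxidase secreted by immune cells, was one that was measured on every array, at 6.14, 6.86, 6.43 and 6.87 at 6 h and at 9.33, 9.17, 9.14 and 9.50 at 24 h. It rose by 2.71 ± 0.15 (adjusted p = 0.000273 by limma), the arrays of each time lay close together, and the times did not overlap. Gja6, a connexin, was at least 5.95-fold higher at 24 h, Mansc1 at least 3.23-fold, Rspo2, a secreted activator of Wnt signalling, at least 2.61-fold, Fmo2, a flavin-containing monooxygenase, at least 2.02-fold, Smco3 at least 1.61-fold and Gprasp2 at least 1.46-fold. None of these 6 was well above background on any 6 h array, so they passed the filter through the 24 h arrays alone. Their limma adjusted p-values were 0.000827, 0.0264, 0.01, 0.00602, 0.0108 and 0.0154. The bounds are for means over arrays and need not hold for each array. At 24 h Mansc1 stood at 7.59 on the NT array against 5.39, 4.75 and 5.52 on S, C and CS. The calls of Smco3 and Gprasp2 were lost without the S, C or CS array of either time, that of Mansc1 without the CS array of either time or the S or C array of 24 h, that of Fmo2 without the C array and that of Trim34a without the CS array of 24 h. Measured on some of the 6 h arrays were Trim34a (2 of 4 arrays, a change of 2.74), Fam228b (3 of 4, 2.68), Esrrg, an orphan nuclear receptor (1 of 4, 2.67), Fsbp (1 of 4, 2.63), Hdac9, a histone deacetylase (3 of 4, 2.35), and Sbk3 (3 of 4, 2.33). The probe used for Mfsd4a, with a measured change of 2.64, was well above background on no 6 h array and on all at 24 h, and no bound is given since another probe of the gene was well above background at 6 h.

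Of the genes that fell most, Meox2, a homeobox transcription factor of mesenchymal cells, had levels of 9.06, 9.10, 8.38 and 8.38 at 6 h and of 6.57, 6.46, 6.05 and 5.98 at 24 h. Its fall of 2.47 ± 0.12 (adjusted p = 0.00022 by limma) was of like size in each pair, with both cortisol arrays lower at each time. Tmem179 fell by 2.23 ± 0.08, Rab15, a small GTPase of the endocytic route, by 2.16 ± 0.09 and Purg by 1.93 ± 0.07. Dio2, the deiodinase that makes active thyroid hormone, fell from 8.46, 8.53, 8.16 and 8.16 to 6.71, 6.50, 6.20 and 6.40, a change of -1.88 ± 0.12. Car2, a carbonic anhydrase, fell by 1.90 ± 0.30 and Gper1, a membrane oestrogen receptor, by 1.87 ± 0.22. Cyba, a subunit of the phagocyte NADPH oxidase, had levels of 7.56, 6.41, 6.78 and 6.49 at 6 h and was not well above background on any 24 h array, and passed the filter through the 6 h arrays alone. It was at least 6.07-fold higher at 6 h (adjusted p = 0.00218 by limma, measured means 6.81 and 3.40). Rgs1 was above background on 1 of 4 arrays at 24 h and fell by 2.76 ± 0.69, a call that was lost without the S or C array of either time (adjusted p of 0.0545 to 0.0715 by limma). Dok3, an adaptor of blood cells, was at least 2.08-fold and Tex52 at least 2.12-fold higher at 6 h, where each was well above background on 3 of 4 arrays, against none at 24 h. Both passed the filter through the 6 h arrays alone. The C array of Tex52 stood at 2.57 at 6 h and 2.53 at 24 h, and its call was lost without the NT, S or CS array of either time. That of Dok3 was lost without the S, C or CS array of 6 h or the C array of 24 h. Cd300lb, a myeloid receptor, fell by 2.01 ± 0.23. Cyba, Tyrobp, Dok3 and Cd300lb are best known from myeloid cells, and the marker levels given above stand beside them.

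Several lists held no called gene. None of 55 cytosolic ribosomal protein genes (median change 0.002), 36 respiratory chain genes (0.02), 24 lysosome genes (0.002), 18 circadian clock genes (0.03), 16 prostaglandin genes (-0.005) or 17 housekeeping genes (-0.01) was called by limma. Among the ribosomal protein genes the changes ran from -0.56 to 0.37. Of 33 ribosome biogenesis genes 3 fell. For this list and those that follow, the shares of all genes tested were 6.74% higher and 6.43% lower. Of 24 glucocorticoid-induced genes Cdo1, cysteine dioxygenase, rose by 1.4 ± 0.14 and Dusp1 fell. Of 20 genes that YAP or TGF-beta induce, Ankrd1 rose by 1.05 ± 0.07 and Inhba by 0.75 ± 0.15, and Smad6 and Pmepa1 fell by 1.00 ± 0.07 and 1.26 ± 0.27, the latter no longer called without the S array of either time. Of 22 p53 targets, Gadd45a rose by 0.96 ± 0.09 and Zmat3 and Apaf1 fell. In the complement list Cfp, properdin, fell by 1.43 ± 0.11 and was the only member of 12 that was called. Of 8 serotonin genes measured, Maob, a monoamine oxidase, rose by 2.04 ± 0.43, with a level of 3.79 on the CS array of 6 h against 6.20 to 7.08 on the other 3.

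Most of these changes were seen in cells grown alone too. The median change in the green channel was 0.85 for the 888 genes that were higher in co-culture and -0.69 for the 847 that were lower, against 0.07 for all genes. Of the 888 genes 865 had a green change above 0, and of the 847 genes 821 had one below 0. The channels share arrays and slides, so these counts are no test of a shared response. The change of cholesterol synthesis genes had a median of -0.85 in co-culture and -0.47 alone, and that of interferon-stimulated genes 0.50 and 1.06, but no member of either list passed the test of the difference. For Rsad2 the changes were 1.56 ± 0.12 and 2.86 ± 0.22, with a difference of -1.30 (adjusted p = 0.062 by limma).

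The test of the difference between both changes called 79 genes (0.599%) as higher in co-culture than alone and 66 (0.501%) as lower. These calls were few beside the 3933 genes at an unadjusted p under 0.05, and limma called none when any 1 of the S, C or CS arrays was left out, with 2625 to 2939 genes then at an unadjusted p under 0.05. Without the NT array of 6 h 44 and 16 genes were called, without that of 24 h 48 and 19, and without the 3 doubted arrays and the treatment term none (2265 at an unadjusted p under 0.05). Among the genes called, the largest difference was that of Ccn2, a matricellular protein gene induced by YAP and TGF-beta. Its levels in co-culture were 12.17, 12.61, 13.14 and 13.28 at 6 h and 12.80, 13.11, 13.08 and 13.31 at 24 h, a change of 0.28 ± 0.12 that was not called. Alone they were 12.25, 14.07, 13.97 and 14.13 at 6 h and 11.74, 11.81, 10.95 and 11.19 at 24 h, a change of -2.18 ± 0.38, and the difference was 2.46 ± 0.33 (adjusted p = 0.042). Timp3, an inhibitor of matrix metalloproteases, changed by 0.78 ± 0.19 in co-culture and -0.92 ± 0.20 alone, a difference of 1.70 ± 0.20 (adjusted p = 0.038). The rise of Timp3 in co-culture was not called without the NT, S or CS array of either time. Myl9 and Smad6, an inhibitor of BMP signalling, had changes of -1.61 and -1.0 in co-culture and of -2.65 and -1.98 alone, differences of 1.03 and 0.97. Vcl, vinculin, changed by -0.55 and -1.47, a difference of 0.92.

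On the other side stood Akr1c14, a hydroxysteroid dehydrogenase, with levels of 9.29, 9.06, 9.27 and 9.09 at 6 h and of 8.18, 8.01, 7.81 and 7.78 at 24 h in co-culture. It changed by -1.24 ± 0.10 there and by 0.48 ± 0.17 alone, a difference of -1.72 ± 0.20 (adjusted p = 0.038 by limma). Dio2 changed by -1.88 and -0.55, Bmf, a pro-apoptotic BH3 protein gene, by -1.14 and 0.14, and Nr4a2 by -1.03 and 0.06. Gbp6, an interferon-inducible GTPase, rose by 0.60 ± 0.08 in co-culture and changed by 2.0 ± 0.15 alone. Apod, a lipocalin, changed by -0.38, which was not called, and by 1.25 alone. Pdgfra, the receptor of platelet-derived growth factor, had a change of -0.56 in co-culture that missed the 1.5-fold threshold and of 0.09 alone. The plot of co-cultured cells against cells alone shows these genes off the diagonal.

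**Figure D5:**
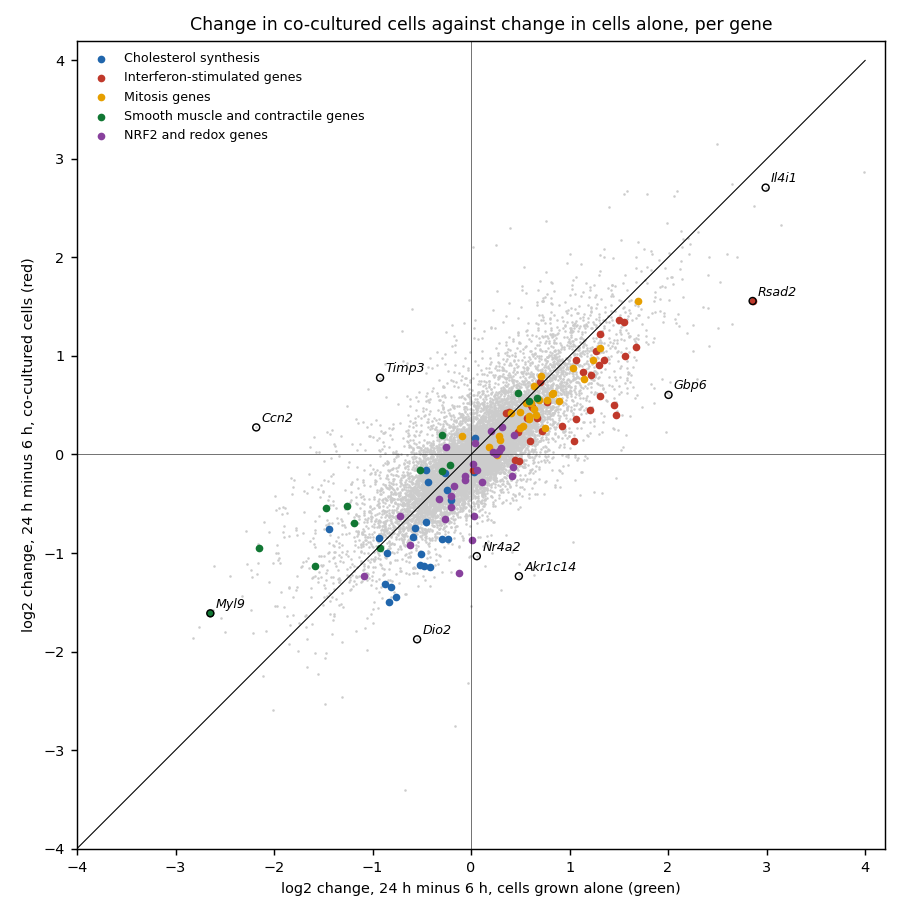
Log2 change from 6 h to 24 h of each gene tested in cells alone (x axis, green channel) and in co-cultured cells (y axis, red channel), with the line of equal change, members of 5 gene lists in colour and some named genes circled. Most genes lie along the line, Ccn2 (-2.18 and 0.28) and Timp3 lie above it, and Akr1c14 (0.48 and -1.24) and Dio2 below it.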

How the data were processed

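RNA of pre-adipocytes was hybridised to dual-colour Agilent mouse arrays, which the authors scanned and extracted with Agilent Feature Extraction (10.5.1.1 by the submitters' processing notes and 10.7.3.1 per the file headers). Each deposited file gives the intensity of every spot on a linear scale, both raw and processed (background subtracted, dyes normalized), besides a log10 ratio of the dyes, Cy5 over Cy3, which the authors' value table repeats. Of 39429 probes, 27508 were named through RefSeq (GRCm38.p6).

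Control spots and spots marked as outliers were left out, spots of a probe were averaged, and log2 processed signals of the 8 arrays were quantile normalized per channel. A probe had to be well above background in red on at least 3 of 4 arrays of a time (21601 did), and the brightest stood for a gene. A probe that met this at only 1 time passed the filter through that time alone. Of 3251 genes with several such probes, 3 had probes called in opposite directions. The fit used limma 3.58.1 (R 4.3.3) with additive terms for time and for treatment, a mean trend and 3 residual degrees of freedom, and two-sided adjusted p-values by Benjamini-Hochberg. The 1.5-fold threshold is the study's. The difference from cells alone was the same fit to red minus green, with no filter on the green signal. For genes not well above background on any array of a time, folds are bounds against the lowest signal well above background on each array. In a simulation of 12883 genes, 87 of 100 genes changed by 1 (log2) and 94 of 100 changed by 2 were recovered, with 10 false calls. It drew independent noise around the same additive model. It held no slide effect and no treatment-specific change with time, so it cannot show how often such effects give calls.

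The members, the 36 gene lists and the tests were chosen with earlier results of these data known. Named genes are the 15 highest and 15 lowest changes among called genes with 1 sign in all pairs (10 and 10 for the difference), leaving out olfactory receptors, clone names and numbered predicted genes, with list members and genes the study names, of which a few are not reported here. Lrp8 was named outside this rule. Genes whose values are given by array were picked from the named genes after their values were seen. Alternatives were other normalizations, filters, models and thresholds and leaving out each array, and the high local background and log ratio alternatives were chosen after seeing the data. The 48 h arrays entered only an alternative. The number of arrays limits the precision.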

Additional observations from a re-analysis of the deposited data

Results flagged for a closer look

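Among 120 groups of 4 arrays checked (60 genes at each time), 13 held 1 array far from the other 3. The rule gives about 1 in 20 by chance for replicates. The 4 arrays of a group had different treatments, and some genes were picked after their values were seen. That rate therefore need not hold here, and the count is no measure of faulty arrays. Far arrays at 6 h were NT for Fam228b (3.17 against 5.33 to 5.64 on the others), Mfsd4a (2.41 against 3.92 to 4.09), Hdac9 (3.42 against 5.25 to 5.56) and Sbk3 (2.36 against 4.99 to 5.29), S for Acta2 (15.17 against 14.72 to 14.77) and Clec4d (11.78 against 11.94 to 11.95), C for Hspa1a (6.52 against 6.86 to 6.89) and Fmo2 (4.09 against 2.08 to 2.20), and CS for Insig1 (7.66 against 7.94 to 7.99), Smco3 (3.07 against 2.15 to 2.29) and Gprasp2 (2.81 against 2.18 to 2.23). At 24 h they were C for Ifit3 (10.75 against 12.92 to 13.19) and CS for Fsbp (7.14 against 6.33 to 6.46). All values are log2 red signals.

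The change from 6 h to 24 h differed between co-cultured cells and cells alone, by the test of the difference, for 79 genes that were higher in co-culture and 66 that were lower. The differences (log2) of genes named by the rule or held by a list were 2.46 for Ccn2, 2.08 for Agxt, 1.76 for Asgr1, 1.70 for Timp3, 1.69 for Esyt3, 1.64 for Eppk1, 1.64 for Mettl21c, 1.59 for Cdh3, 1.57 for Dcc, 1.53 for Gcm1, 1.03 for Myl9, 0.97 for Smad6, 0.92 for Vcl and 0.60 for Tslp. On the lower side they were -1.72 for Akr1c14, -1.62 for Apod, -1.52 for Rnu3b1, -1.46 for Rasgef1a, -1.40 for Gbp6, -1.37 for Fam3b, -1.33 for Dio2, -1.28 for N4bp2l1, -1.28 for Bmf, -1.17 for Amy2a5, -1.09 for Nr4a2 and -0.65 for Pdgfra.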

How the results depend on the processing

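The counts of 888 higher and 847 lower genes stayed within 1.5 times under most alternatives. Leaving out 1 array gave 703 to 984 higher and 734 to 1071 lower genes. With a 2-fold threshold 338 were higher and 226 lower, with no fold threshold 2210 and 2660, and without the 3 doubted arrays, with time alone as a term, 295 and 381. Normexp with loess and Aquantile normalization gave 475 lower genes. Of the 1735 genes called, between 628 and 1733 kept their call and direction across the alternatives at the 1.5-fold threshold. No named gene changed sign, but of 146 named genes that were called, 44 lost the call without at least 1 array (12 to 29 for a given array), 93 without the 3 doubted arrays and the treatment term, 73 at 2-fold and 38 on the untreated and cortisol arrays alone.

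The counts of the difference from cells alone (79 higher, 66 lower) moved far more. They were 204 and 173 with no treatment term (no matching of arrays), 214 and 224 on all 12 arrays, 120 and 113 at the 75th percentile, 125 and 168 with normexp and no dye normalization, 162 and 201 for probes above background on all 8 arrays, 42 and 24 for the mean of a gene's probes, 233 and 191 with array weights, and 45 and 17 at 2-fold. Loess gave 149 higher and the deposited log ratios 139. No genes were called by limma with no filter (0 and 0, 4249 at an unadjusted p under 0.05), on the untreated and cortisol arrays alone (0 and 0, 1375) or without the 3 doubted arrays and the treatment term (0 and 0, 2265). Leaving out 1 array gave 0 to 48 and 0 to 19. The cause was not tested.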
